A study of Mus musculus with 620 samples.

Results

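Short-term exenatide was examined in the heart of aged mice by bulk RNA sequencing. The members are the 10 heart libraries of the short-term cohort labelled ST_A_Ex (aged, exenatide) and ST_A_ctrl (aged control), 5 each, of 620 libraries in the series, and they were chosen by their titles alone. Each library came from 1 animal, and all 10 carry RNA-seq batch 5 in the labels. The other heart groups used here for comparison include the short-term aged mice with hypothalamic knockdown of the GLP-1 receptor, with and without exenatide (ST_A_Ex_KD and ST_A_ctrl_KD, 5 each). They also include the aged long-term mice (LT_A_Ex, 8, and LT_A_ctrl, 9) and the young mice of the YA cohort (YA_Ex and YA_ctrl, 8 each). Skeletal muscle of the same 10 short-term animals was compared as well. Rapamycin-treated aged mice (ST_A_rapa) and young controls (ST_Y_ctrl), 5 each, entered the same fit, as did 8 young long-term controls (LT_Y_ctrl) in that of the long-term cohort. The labels give no dose, length of treatment, exact age, sex, strain, vehicle, knockdown reagent, part of the heart or time of collection. They also do not say whether the short-term control animals without knockdown received a control vector.

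Exenatide is a peptide drug that activates GLP-1R, the receptor of the incretin hormone GLP-1 from the intestine, and it is used to lower blood glucose. Heart muscle answers stretch and load with a set of stress genes, of which Nppb (brain natriuretic peptide, BNP) is the best known: ventricular myocytes release its product, which promotes salt and water loss and relaxes vessels. The heart also runs a circadian clock, in which Arntl (Bmal1) and Clock drive the Per, Cry and Nr1d1 repressors and output genes such as Dbp.

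Heart identity was clear in every library. Of the 10 cardiomyocyte markers, 9 (Myh6, Actc1, Pln, Myl2, Tnnt2, Tnni3, Mybpc3, Tnnc1 and Ryr2) stood above 658 CPM (counts scaled to the size of the library, with TMM factors) in all 30 short-term heart libraries, and the tenth, the mainly atrial peptide gene Nppa, was lower and variable. None of the 10 was called between ST_A_Ex and ST_A_ctrl. Total counts were 16.9 to 19.6 M in the exenatide and 14.6 to 17.5 M in the control libraries.

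Each group held 2 libraries that stood apart from the rest, E7 and E31 with exenatide and E29 and E23 among the controls. The exenatide library of animal E7 held transcripts of fast skeletal muscle: Myh4 stood at 207 CPM against at most 3.16 in the other 9, Atp2a1 at 98.1 against at most 1.87, Tnnt3 at 37.4 against at most 1.05 and Actn3 at 29.5 against at most 0.818. The control library of animal E29 had the highest atrial transcripts (Myl4 19.3 CPM against at most 2.90, Myl7 11.9 against at most 1.47, Sln 5.68 against at most 0.116), and its clock genes lay among those of the exenatide animals, as given below. Interferon-stimulated genes summed to 7994 CPM in exenatide E31 against 526 to 871 CPM in the other 4, and to 3573 CPM in control E23 against 644 to 894 CPM. MHC class I genes (6458 CPM in E31 and 5473 CPM in E23, at most 2225 in the other 8) and class II genes (2603 and 3349, at most 1574) were highest in the same animals. None of these 3 lists had a call, and the part of E31 and E23 in other results was not tested beyond leaving each out. Results that rest on E7 or E29 are given with and without them, and no fit left out E31 and E23 together.

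Between ST_A_Ex and ST_A_ctrl, 390 of 15763 tested genes, 2.47%, differed at an adjusted p under 0.05. Of these, 298 rose (1.89%) and 92 fell (0.584%). Changes were moderate, with a median log2 difference of 0.75 among the rises and -0.55 among the falls, and 70 rises and 14 falls reached 1 on the log2 scale. For 338 of the 390 called genes the groups did not overlap, and this was not counted over all tested genes. Without an adjustment, 3380 genes were under 0.05, 12.7% of all tested genes higher and 8.70% lower, which is the background for the unadjusted counts of the lists below. The count of calls fell in 9 of the 10 fits without 1 animal and stayed at 390 without E32, with 286 shared. It was 66 without control E13, 97 without E30, 108 without E23 and 255 without E29, and 104 without exenatide E25, 104 without E31, 146 without E19, 155 without E5 and 195 without E7. Without both E7 and E29 it was 135, of which 125 were among the 390.

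**Figure D1:**
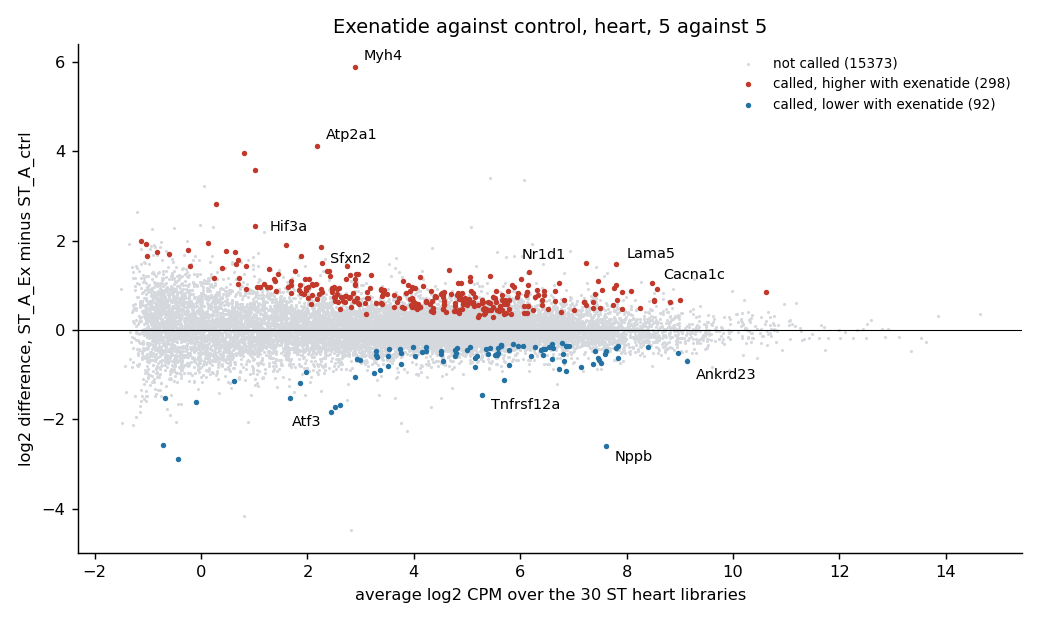
Log2 difference (ST_A_Ex minus ST_A_ctrl, vertical axis) against average log2 CPM over the 30 short-term heart libraries (horizontal axis), 1 point per tested gene, with called genes in colour. Rises (298) outnumber falls (92), Nppb, at -2.60, is the lowest named fall, and the highest rises, Myh4 and Atp2a1, rest on animal E7.

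The rises and falls differed in base composition. Median GC content of the transcript was 53.96% for risen and 43.5% for fallen genes, against 49.7% for all tested genes, and median length was 4186 and 2842 bases against 3323. Over 14827 genes the log2 difference ran with GC content (Spearman's coefficient 0.376, across genes, which are not independent replicates). The log2 level per 10 points of GC, against the average library, sloped by -0.38 to -0.09 in the controls and by -0.12 to 0.07 in the exenatide libraries. After each library's trend with GC and length was removed, 396 genes were called, 215 up and 181 down (54.3% up, against 76.4%), and 200 of these were among the 390. How far RNA quality or library preparation takes part in the differences was not tested. Where a gene of the naming rule, given below as a rise or fall, lost its call after this removal, its adjusted p is given.

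The largest fall among the named genes was in the natriuretic peptide Nppb. Its level was 101 (E5), 81.2 (E7), 82.03 (E19), 68.8 (E25) and 22.9 CPM (E31) with exenatide, and 419 (E13), 729 (E23), 240.5 (E29), 330.4 (E30) and 447 CPM (E32) in the controls. Every exenatide heart lay below every control heart. The means were 71.3 ± 29.5 and 433 ± 184 CPM (SD, n = 5 each), and the log2 difference was -2.60 with an SE of 0.60 (adjusted p = 0.0234). Over 17 alternative settings the difference lay between -2.82 and -2.36, and the adjusted p between 0.00116 and 0.0682. The call was lost without E31 (0.0682), without a filter on low counts (0.0661), and without E25, E23, E13 or E19 (0.0649, 0.0587, 0.0584 and 0.0517). The other natriuretic peptide, Nppa, was not called (-0.64, SE 0.95, adjusted p = 0.722) and ranged from 11.8 to 71.6 CPM with exenatide and from 29.4 to 80.1 CPM in the controls.

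**Figure D2:**
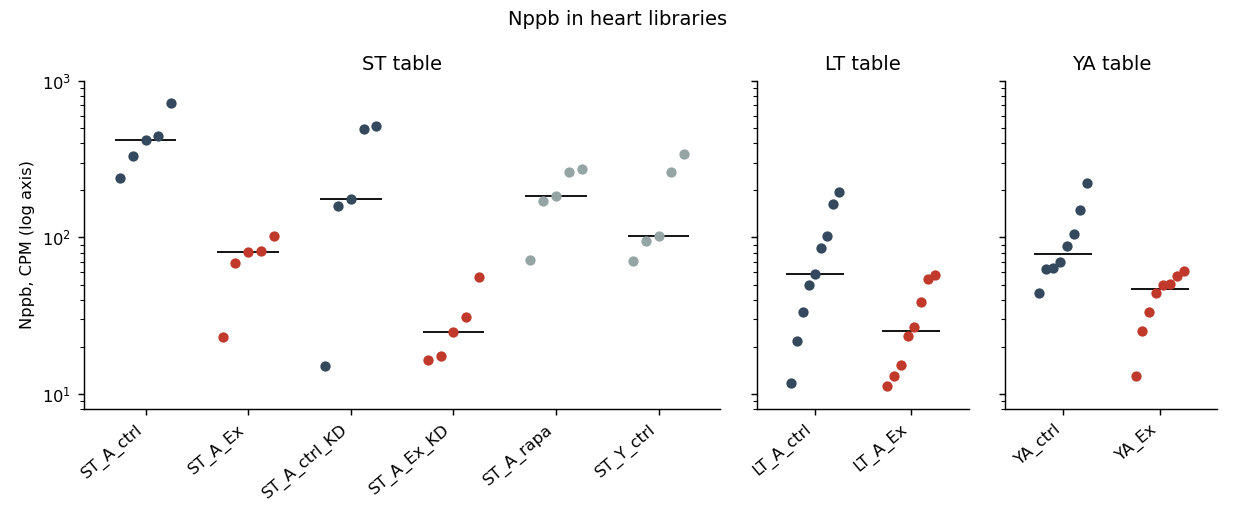
Nppb in CPM (log axis) in each heart library, by condition and deposited table; horizontal lines are medians. All 5 ST_A_Ex values lie below all 5 ST_A_ctrl values, and in the other 3 exenatide groups the median is below that of their own controls, with overlap.

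Nppb is shown with its promoter because its level separated the groups, which held for 338 of the 390 called genes. The 250 bases before its start, from RefSeq on GRCm38.p6 (chr4:147985650-147985899, plus strand), hold 1 M-CAT motif (letters CATTCC, either strand) and 2 GATA motifs (letters TGATAA or AGATAA, either strand), all in capitals. Of 32851 promoter windows of this length, 12.64% hold an M-CAT and 16.6% a GATA motif. Ankrd23, a second fallen stress gene, has 1 M-CAT motif in the window chr1:36535740-36535989 (minus strand), also in capitals. Its other window, chr1:36536557-36536806, is not shown and holds 0 M-CAT and 1 GATA motif. Of the 13 stress-list genes with a window, called or not, 8 hold an M-CAT motif, against 14.36% of 27025 genes. The fallen genes Rcan1, Tnfrsf12a and Atf3 hold no M-CAT motif in their windows. A match describes the letters and is not a measured binding site.
Nppb: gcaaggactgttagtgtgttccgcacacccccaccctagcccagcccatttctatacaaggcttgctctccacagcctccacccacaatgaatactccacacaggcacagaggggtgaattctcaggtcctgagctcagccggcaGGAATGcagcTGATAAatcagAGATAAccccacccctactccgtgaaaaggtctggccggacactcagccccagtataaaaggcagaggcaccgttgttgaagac
Ankrd23: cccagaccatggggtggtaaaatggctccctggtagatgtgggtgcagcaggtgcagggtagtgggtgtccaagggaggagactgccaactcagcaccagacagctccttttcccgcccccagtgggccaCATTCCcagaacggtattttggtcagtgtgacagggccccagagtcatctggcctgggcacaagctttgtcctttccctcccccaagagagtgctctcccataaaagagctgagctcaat

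Of the other stress genes, 3 of the 14 tested members of the cardiac stress list fell (Nppb, Ankrd23 and Rcan1; 0.584% of all genes fell), none rose, and the list's median log2 difference was -0.56 against 0.01 over all genes; 7 were lower at an unadjusted p under 0.05 (8.70% of all genes). Ankrd23, an ankyrin repeat protein of the titin I-band that responds to stretch, was 466 (E5), 378 (E7), 515 (E19), 563 (E25) and 424 CPM (E31) with exenatide and 827 (E13), 858 (E23), 522 (E29), 575 (E30) and 1009.8 CPM (E32) in the controls. The groups overlapped at E29 only, and the log2 difference was -0.69 (SE 0.18, adjusted p = 0.0355). Rcan1, a calcineurin target and inhibitor, ranged from 85.3 to 109 CPM and from 97.8 to 203 CPM (-0.70, SE 0.19, adjusted p = 0.0410), with E29 again lowest of the controls. No member of the list was called without E13, E19, E23 or E31, each left out alone, or without the low-count filter, and 1 was called without E5, E7, E25 or E32.

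Tnfrsf12a, Abra and Atf3 also fell, with the same control near the exenatide values. Tnfrsf12a (Fn14), the receptor for the cytokine TWEAK, was 28.8 (E5), 24.3 (E7), 25.5 (E19), 25.4 (E25) and 14.8 CPM (E31) with exenatide. In the controls it was 72.5 (E13), 90.5 (E23), 27.8 (E29), 50.3 (E30) and 82.3 CPM (E32), a log2 difference of -1.44 (SE 0.31, adjusted p = 0.0160). Abra (STARS), an actin-binding protein of striated muscle, lay within 35.5 to 38.7 CPM in the exenatide hearts and between 37.7 (E29) and 102 CPM in the controls (-1.12, SE 0.27, adjusted p = 0.0308). Atf3, a stress-induced transcription factor, was 1.71 to 3.66 against 3.19 (E29) to 21.4 CPM (-1.83, SE 0.46, adjusted p = 0.0333). For each of Tnfrsf12a, Abra and Atf3 the control E29 lay within the exenatide range and the other 4 controls above it. Abra was not called without E23 or without E31 (adjusted p = 0.0662 and 0.0674). Nor was Atf3 (0.0920 and 0.0644), whose log2 difference was -1.41 without E23. Over all 390 called genes E29 lay within the exenatide range for 28, E32 for 21, E30 for 8, E23 for 6 and E13 for 5.

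In other falls the groups lay apart with E29 among the controls. Emp1, a membrane protein induced during tissue remodelling, was 60.5 to 111 CPM with exenatide and 144 to 193 CPM in the controls (-0.91, SE 0.18, adjusted p = 0.00941). Lgals1 (galectin-1), a secreted sugar-binding protein, was 128 to 151 CPM with exenatide and 189.6 to 228 CPM in the controls (-0.63, SE 0.12, adjusted p = 0.00907). Both kept their call in every one of 17 alternative settings. Cytoskeletal genes were among the falls: the tubulins Tuba1a (-0.87, adjusted p = 0.0147) and Tubb2b (-1.19), tropomyosin Tpm4 (-0.67), Septin7 (-0.47) and beta-actin Actb (-0.52, adjusted p = 0.0472). The collagen chaperone Serpinh1 (-0.63, adjusted p = 0.0299), the secreted glycoprotein Fstl1 (-0.77), the snoRNP protein Nop58 (-0.69), the endoplasmic reticulum retrieval receptor Kdelr3 (-0.89) and the chemokine scavenger Ackr3 (-0.84, adjusted p = 0.0121) also fell. Serpinh1, with E29 (204 CPM) inside the exenatide range, and Tubb2b are the exceptions with overlapping groups, and Fstl1 lost its call without E29 (adjusted p = 0.0595). Actb, Serpinh1 and, further on, Postn, Pnpla2, Slc27a1 and Kcnh2 lie outside the naming rule and were chosen after their values were seen. Whether Actb, Serpinh1, Pnpla2 and Slc27a1 keep their calls in the alternative settings was not checked. The call was lost after removal of the GC and length trend for Nop58 (adjusted p = 0.0730) and Septin7 (0.0585).

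**Figure D3:**
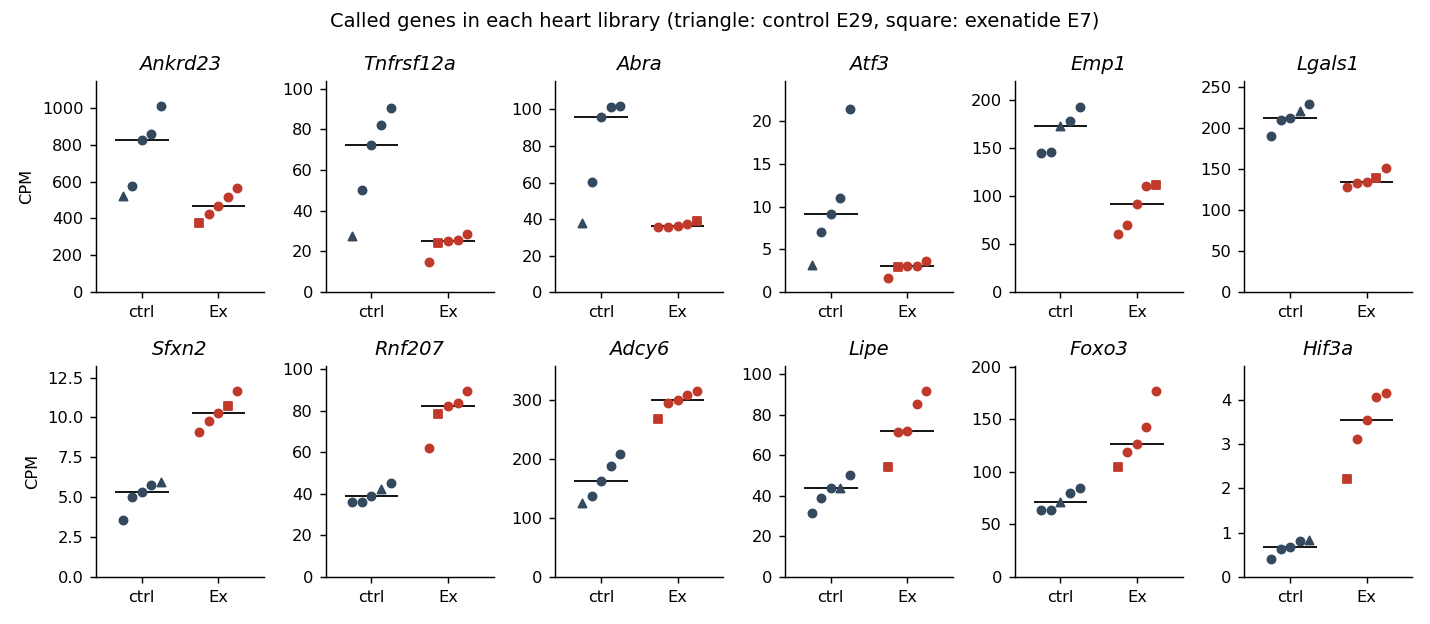
CPM of 12 called genes in each of the 5 control (ctrl) and 5 exenatide (Ex) hearts, with group medians as lines, each vertical axis starting at 0. In the upper row (falls) the control E29 (triangle) sits at the exenatide level for Ankrd23, Tnfrsf12a, Abra and Atf3 but not for Emp1 and Lgals1. In the lower row (rises) no gene has overlapping groups, as for 338 of all 390 called genes.

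Chemokine genes gave a weaker signal. Of 24 tested members of the chemokine and cytokine list, 2 fell, the monocyte attractants Ccl2 (-1.67, SE 0.46, adjusted p = 0.0472) and Ccl7 (-1.73, SE 0.48, adjusted p = 0.0476), and none rose. Over all genes 0.584% fell. At an unadjusted p under 0.05, 8 members were lower and 0 higher (8.70% and 12.7% of all genes). Ccl2 was 2.42 to 4.22 CPM with exenatide and 4.41 to 22.9 CPM in the controls. Neither was called without any 1 of E5, E7, E13, E19, E23, E25, E30 or E31, without both E7 and E29, or after removal of the GC and length trend (0.0564 and 0.0639). The summed level of 17 macrophage markers was 709 to 1131 CPM with exenatide and 817 to 2114 CPM in the controls, with 5 members lower at an unadjusted p under 0.05 and 0 called. It was highest in E23, as were Ccl2 and Ccl7. Among 37 matrix genes 0 were called and 11 were lower at an unadjusted p under 0.05, led by Postn (periostin, 46.2 to 65.3 against 96.1 to 112 CPM, -0.92, adjusted p = 0.0521). After removal of the GC and length trend 5 matrix genes and 2 fibroblast markers were called as falls. The 13 fibroblast markers, 0 of them called before that removal, summed to 3224 to 5409.8 and 3752 to 7554 CPM. In bulk tissue, fewer cells of a type and less RNA per cell cannot be told apart, and the part of these cells in the falls was not tested.

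Ribosomal protein genes leaned down without a call. All 41 had a lower mean with exenatide, with a median log2 difference of -0.38, 22 under an unadjusted p of 0.05 (8.70% of all genes were lower at that level) and 0 called (smallest adjusted p = 0.0988). Their sum was 9302 to 13371 CPM with exenatide and 11209 (E32) to 15945.5 CPM in the controls, with overlap. The 41 genes are not independent replicates. The cytosolic chaperone Hsp90aa1 fell (152 to 177 against 227 to 326 CPM, -0.74, adjusted p = 0.0456), alone among 20 chaperones (0.584% of all genes fell), and not after removal of the GC and length trend (0.0538).

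Several enzymes and a mitochondrial carrier were among the named rises. The smallest adjusted p belonged to Sfxn2, a mitochondrial sideroflexin, at 9.09 (E5), 10.7 (E7), 11.6 (E19), 9.77 (E25) and 10.3 CPM (E31) with exenatide and 3.56 (E13), 5.04 (E23), 5.94 (E29), 5.74 (E30) and 5.30 CPM (E32) in the controls. All exenatide values were above all controls, a log2 difference of 1.01 (SE 0.15, adjusted p = 0.00465). Aldh9a1, an aldehyde dehydrogenase of carnitine synthesis, was 68.3 to 96.3 CPM with exenatide and 43.3 to 59.1 CPM in the controls (0.78, SE 0.13, adjusted p = 0.00793). Carns1, which makes carnosine, was 58.1 to 78.4 CPM with exenatide and 30.98 to 40.5 CPM in the controls (0.97, SE 0.19, adjusted p = 0.00881). Pfas, an enzyme of purine synthesis, rose by 0.81 (SE 0.14, adjusted p = 0.00793). Glul (glutamine synthetase) was 524 to 672 against 359 to 440.2 CPM (0.66, SE 0.17, adjusted p = 0.0356).

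Of 18 genes of fatty acid and triglyceride synthesis 1 rose, Srebf1 (1.89% of all genes rose), and 5 were higher at an unadjusted p under 0.05. The triglyceride lipase Pnpla2 (ATGL) was 463 to 511 CPM with exenatide and 274 to 335 CPM in the controls (0.62, SE 0.12, adjusted p = 0.00881). Hormone-sensitive lipase Lipe (0.85, SE 0.22, adjusted p = 0.0384), the lipid droplet protein Plin4 (1.004, SE 0.22, adjusted p = 0.0169), the fatty acid transporter Slc27a1 (0.87, SE 0.19, adjusted p = 0.0164) and the lipogenic regulator Srebf1 (0.74, SE 0.20, adjusted p = 0.0410) also rose. Srebf1 was not called after removal of the GC and length trend (0.0539). Of 28 tested genes of the PPAR and fatty acid oxidation list 0 were called, 7 were higher at an unadjusted p under 0.05, and the median was 0.18. Plin4 and Lipe stand on the adipocyte list too. Of its 15 markers only 7 passed the filter on low counts, 8 (Adipoq, Plin1, Lep and Ucp1 among them) did not, and the list summed to 903 to 1156 CPM with exenatide and 779 to 1025 CPM in the controls, with overlap.

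Among 23 genes of the beta-adrenergic list 1 rose, Adcy6 (1.89% of all genes rose). At an unadjusted p under 0.05, 6 were higher and 3 lower (12.7% and 8.70% of all genes), and the median was 0.14. Adcy6, the main cardiac adenylyl cyclase with Adcy5, was 299 (E5), 268 (E7), 294 (E19), 307 (E25) and 316 CPM (E31) against 137 (E13), 187 (E23), 126 (E29), 163 (E30) and 208 CPM (E32). The groups did not overlap, and the log2 difference was 0.85 (SE 0.18, adjusted p = 0.0153). Cacna1c, the pore of the L-type calcium channel, was 348 to 661 against 172 to 341 CPM (1.06, SE 0.29, adjusted p = 0.0481). Rnf207, a ring finger protein of cardiac repolarization, was 61.9 to 89.9 CPM with exenatide and 35.96 to 45.1 CPM in the controls (0.9996, SE 0.18, adjusted p = 0.00793). Of 22 ion channel and gap junction genes 0 were called, and the median was 0.45. At an unadjusted p under 0.05, 10 were higher and 0 lower (12.7% and 8.70% of all genes), and 1 was called after removal of the GC and length trend. Kcnh2 (ERG) was 98.6 to 138 against 65.2 to 83.3 CPM (0.73, SE 0.25, adjusted p = 0.101).

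Lama5, a laminin chain of basement membranes, rose by 1.49 (SE 0.37, adjusted p = 0.0333), with 156 to 439.6 CPM against 64.3 to 166 CPM. Adamts7, a matrix metalloprotease (1.22), the galectin Lgals4 (1.30), the small GTPase Rhof (1.02), the actin nucleator Whamm (0.74) and the flavin reductase Ndor1 (0.64) rose with adjusted p from 0.00793 to 0.00881. Hif3a, a hypoxia-inducible factor, was 2.21 to 4.15 CPM with exenatide and 0.405 to 0.830 CPM in the controls (2.33, SE 0.48, adjusted p = 0.0118). It was the only call among 15 genes of the hypoxia list (1.89% of all genes rose). Among 20 glucocorticoid-responsive genes, Glul and Foxo3 rose (Foxo3 0.89, SE 0.24, adjusted p = 0.0450), where 1.89% of all genes rose. At an unadjusted p under 0.05, 10 were higher and 1 lower (12.7% and 8.70% of all genes). Neither Glul nor Foxo3 was called without both E7 and E29 or without any 1 of E5, E7, E13, E19, E23, E25, E30 and E31. Tsc2, a brake on mTOR signalling (0.62, adjusted p = 0.0349; 0.0608 after removal of the GC and length trend), and the cell cycle inhibitor Cdkn1b (0.38, adjusted p = 0.0499; 0.105 after that removal) also rose. Without both E7 and E29 the call was lost for Adcy6 (adjusted p = 0.0570), Lipe (0.0649), Cacna1c (0.105), Srebf1 (0.109), Tsc2 (0.0885), Cdkn1b (0.107), Lama5 (0.0897), Kdelr3 (0.0527), Ccdc84 (0.0780), Fstl1 (0.0709) and Hsp90aa1 (0.0673), as for Glul, Foxo3, Ccl2 and Ccl7, all with the same direction.

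The 14 named genes that stayed called in every one of 17 alternative settings were Sfxn2, Whamm, Aldh9a1, Pfas, Rnf207, Rhof, Adamts7, Lgals4, Carns1, Ndor1, Hif3a, Ankrd63, Emp1 and Lgals1, of 57 named genes that were called. With 1 animal left out at a time, 17 of the 57 stayed called in all 10 fits and 31 lost their call in 5 or more, including Lipe, Cacna1c and Srebf1 (9 of 10), Atf3 and Rcan1 (8), Ankrd23 and Lama5 (7), Abra (6) and Nppb (5). Of the 57, 54 kept their direction in all settings. The other 3, Myh4, Atp2a1 and Tnnt3, turned without E7. The 4 called rises of the skeletal muscle fibre list (those 3 and Actn3, with log2 differences of 3.58 to 5.89) were lost without that animal, and 3 of them (Myh4, Tnnt3 and Actn3; adjusted p = 0.0611, 0.0530 and 0.0544) after removal of the GC and length trend. Without that animal, whose fast fibre transcripts are given above, the list's median went from 3.23 to -0.40.

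Clock genes differed widely between animals. Only Nr1d1 (REV-ERB alpha), of 18 tested clock genes, was called: it was 175 (E5), 192 (E7), 168 (E19), 199 (E25) and 194 CPM (E31) with exenatide and 67.0 (E13), 36.2 (E23), 129.6 (E29), 42.02 (E30) and 51.4 CPM (E32) in the controls (1.51, SE 0.37, adjusted p = 0.0312). This call was lost in 9 of the 10 fits without 1 animal and held without E29. Dbp was 234 (E5), 138 (E7), 81.3 (E19), 47.8 (E25) and 114 CPM (E31) with exenatide, and 5.14 (E13), 5.50 (E23), 148 (E29), 12.998 (E30) and 10.4 CPM (E32) in the controls. Of the controls, 4 had low Dbp and E29 stood inside the exenatide range, so the difference of 1.76 (SE 0.92) was not called (adjusted p = 0.264). Arntl, which peaks opposite to Dbp, was 3.61 to 25.9 CPM against 37.98 to 47.9 CPM in 4 controls and 8.75 CPM in E29. Without E29 the log2 difference was 3.84 for Dbp, 2.46 for Per3, 1.004 for Cry2 and 1.90 for Nr1d1. These are given with no test, because E29 was picked out by its clock genes.

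Per3 is shown because its promoter carries the motif of the clock output factors Dbp, Tef and Hlf. The window before its start, from RefSeq on GRCm38.p6 (chr4:151044666-151044915, minus strand), holds 2 D-box motifs (letters TTATGTAA, either strand), in capitals, a motif found in 0.8188% of windows. Per3 is the only 1 of the 15 clock genes with a window that holds it.
Per3: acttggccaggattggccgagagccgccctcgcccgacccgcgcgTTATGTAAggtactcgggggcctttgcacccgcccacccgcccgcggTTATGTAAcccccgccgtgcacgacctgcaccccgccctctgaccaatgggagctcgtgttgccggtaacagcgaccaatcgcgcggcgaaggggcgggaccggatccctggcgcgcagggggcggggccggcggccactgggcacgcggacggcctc

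Skeletal muscle of the same 10 animals followed the same order for several clock genes. Across the 10 animals the log2 levels in heart and muscle had a Pearson's r of 0.98 for Dbp, 0.97 for Arntl and 0.94 for Per3, and 0.02 for Nr1d1, given as a description because the animals fall into groups. E29 was with the exenatide animals for Dbp and Arntl in both tissues. The exenatide difference in heart minus that in muscle was 1.59 for Nr1d1 (SE 0.38, adjusted p = 0.00826) and was not called for the other 15 clock genes compared. Collection times are not in the labels, so time of day and treatment cannot be told apart for these genes. The same limit holds for every comparison of exenatide with control given here. E29 was also the control at the exenatide level for Ankrd23, Tnfrsf12a, Abra and Atf3, and the part of time of day in those falls was not tested.

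**Figure D4:**
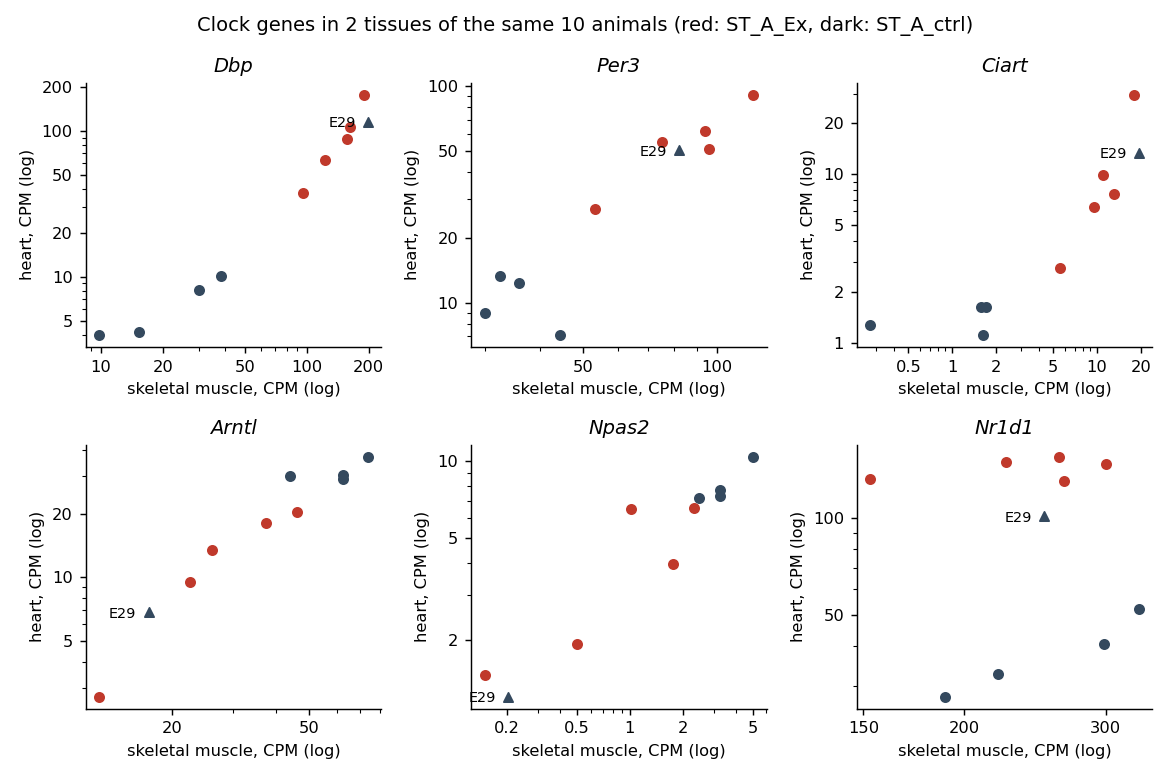
Heart CPM (vertical, log axis) against skeletal muscle CPM (horizontal, log axis) of 6 clock genes in the same 10 animals, scaled over both tissues together, exenatide in red and control in dark. For 5 genes heart and muscle follow one order with E29 among the exenatide animals, and for Nr1d1 the 4 other controls are low in heart only.

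Exenatide also gave a different response in heart than in skeletal muscle at many genes: 2668 of 16008 tested genes (16.7%) differed in their exenatide effect. After removal of the GC and length trend 1343 differed, of which 864 were among the 2668. Such a difference holds both the heart and the muscle effect, and the muscle effects are not given separately. Adcy6 and Carns1 are among the genes taken because they led this test. Sfxn2 (0.98), Rhof (1.15), Carns1 (1.51), Adcy6 (1.49) and Lgals4 (1.61) had a higher log2 difference in heart than in muscle, and Ackr3 (-0.89) a lower one. The difference was not called for Nppb (-4.42, adjusted p = 0.133), Ankrd23 (-0.68, 0.171) or Abra (-0.80, 0.166).

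With the hypothalamic knockdown, exenatide changed 4 genes (0.0254% of 15763), all falls, among them Tnfrsf12a (-1.88, SE 0.32, adjusted p = 0.0201) and Ankrd23 (-0.999, SE 0.18, adjusted p = 0.0253). At an unadjusted p under 0.05 there were 1819. No gene was called for exenatide within the knockdown without E8, E9, E15, E16, E21 or E33, each left out alone. Both comparisons have 5 animals a group and no shared libraries. The effect itself differed with the knockdown for 5 genes (0.0317%), including 2 of the named genes: Sfxn2 (-1.10, adjusted p = 0.0495) and Ccdc84 (-0.99, adjusted p = 0.0495), with exenatide differences of 1.01 without and -0.09 with the knockdown for Sfxn2 and 0.59 and -0.40 for Ccdc84. Neither Sfxn2 nor Ccdc84 was called here without E5, E9, E12, E13, E16, E19, E23, E25, E30, E33 or E35, each left out alone. The stress genes were not shown to differ: the difference was -0.62 for Nppb (adjusted p = 0.686), -0.44 for Tnfrsf12a (0.585) and -0.31 for Ankrd23 (0.494). For the rises Carns1, Pfas, Aldh9a1, Rhof and Lgals4, which lay between -0.24 and -0.07 with the knockdown, the difference had adjusted p of 0.0632 to 0.0638. Of the 5 knockdown controls, E35 and E9 had GC slopes of 0.35 and 0.28, above those of the other 18 libraries of these 4 groups. The knockdown itself, made in the hypothalamus, cannot be checked in heart.

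In the long-term cohort exenatide changed 603 of 15036 genes in heart (4.01%). Of the 379 genes called in the short-term hearts that were measured there, 11 were called, 2.90%, which is below the share over all genes. The 11 are 2.82% of the short-term and 1.82% of the long-term calls, and 9 moved in the same direction. They include Tnfrsf12a (-1.11, adjusted p = 0.0266), Ankrd23 (-0.64, 0.0363), Abra (-0.50, 0.0395) and Lgals1 (-0.67, 0.0230), named after their values were seen. Within the batches of that cohort the difference was -0.75 and -1.40 for Tnfrsf12a, -0.55 and -0.82 for Ankrd23, -0.30 and -0.75 for Abra, and -0.76 and -0.49 for Lgals1 (5 against 5 in batch 2, 3 against 4 in batch 3). In the YA hearts exenatide changed 2 of 14722 genes (0.0136%), and 0 of the 380 measured short-term calls were among them.

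Nppb was lower with exenatide in each of the other 3 heart comparisons, with overlap. It was not called across all genes in any of them: -3.22 with the knockdown (adjusted p = 0.0513), -1.17 in the long-term (0.108) and -1.27 in the YA cohort (0.648). As a single gene, chosen after its values were seen, it was 30.1 ± 18.3 (SD, n = 8) against 79.98 ± 63.4 CPM (n = 9) in the long-term hearts (two-sided exact permutation of mean log2 CPM within batches, p = 0.0374). In the YA hearts it was 41.7 ± 16.5 against 100.4 ± 58.6 CPM (n = 8 each, exact permutation p = 0.00295). With the knockdown it was 29.1 ± 15.9 against 271 ± 221 CPM (n = 5 each, exact permutation p = 0.0476), where the lowest control, E35, held 15.1 CPM and the other 4 held 158 CPM or more. The log2 difference with the knockdown was -2.61, -3.46 without E35 and -3.70 without E35 and E9, with no test because E35 is the lowest. The Benjamini-Hochberg values over these 3 exact tests were 0.0476, 0.00886 and 0.0476. In the long-term batches the difference was -0.73 (batch 2) and -1.61 (batch 3).

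**Figure D5:**
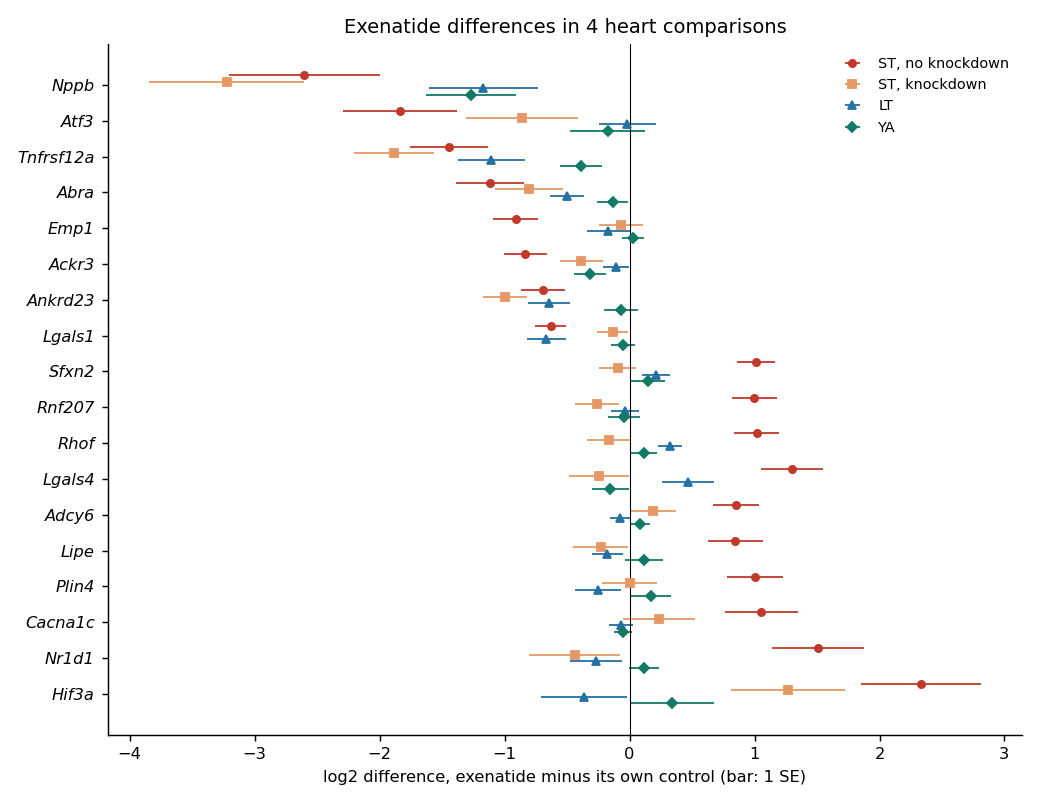
Log2 difference of exenatide minus its own controls for 18 genes in 4 heart comparisons (points, with bars of 1 SE). Nppb lies below 0 in all 4, Tnfrsf12a and Ankrd23 are lowest in the short-term pairs, and rises such as Sfxn2 and Rnf207 lie near 1 only in the short-term animals without knockdown, although the difference between comparisons was tested only for the knockdown.

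The incretin receptors gave little signal in heart. Glp1r had 8 counts in all, in 3 of the 10 libraries, with at most 4 in 1 library, and did not pass the filter on low counts. A count of 3, the limit that 0 allows, is 0.147 to 0.192 CPM in these libraries. Gcg and Gip had 0 counts in all 10. Gipr and Dpp4, the protease that inactivates GLP-1, were tested and not called (-0.15, adjusted p = 0.910, and -0.22, adjusted p = 0.764). Intervals and floors cover counting error only.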

How the data were processed

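RNA from heart, and from skeletal muscle of the same animals, was measured by bulk poly(A) RNA sequencing. Per the labels' protocols, tissue kept in RNAlater was extracted with TRIzol or the RNAqueous kit, and NEBNext Ultra II served for library preparation, without strand marking, so reads of overlapping or antisense genes cannot be told apart. Per the submitters' processing notes, reads were checked with FastQC 0.11.9 and the build was GRCm39. Aligner, counter and annotation release: not given in the sources used here. For the ST and YA cohorts the authors deposited estimated counts of 40840 genes, in which 7.39% of the non-zero ST heart values were not whole. For LT the authors deposited whole-number counts of 24850 genes. The estimated counts were rounded.

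Counts were tested with edgeR 4.0.16 in R 4.3.3: TMM, filterByExpr by condition, robust quasi-likelihood fits and F tests over all conditions of a cohort's hearts (30 libraries in ST), with RNA-seq batch as covariate in LT, and Benjamini-Hochberg adjustment over all genes of a contrast. Genes with an adjusted p under 0.05 count as called. CPM are scaled by TMM, and log2 CPM has a prior count of 2. SE is the log2 difference divided by the root of F. The p-values measure the spread between animals. Group, animal, tissue and batch came from titles and descriptions. Named genes follow a rule: among called genes with an average log2 CPM of at least 1, the largest rises, the largest falls and the smallest adjusted p, plus up to 3 leading members of each of 56 gene lists with a call, leading genes of the 2 tests of difference, the incretin axis and the cardiomyocyte markers. The members and lists were chosen with earlier results of these data known. A few genes are not reported here.

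On simulated counts, the test of heart (15608 genes run) recovered 79 of 100 genes changed by 1 and 29 of 100 changed by 0.5 on the log2 scale, with 6 false calls of 114. The test of heart minus muscle (15461 genes run) recovered 26 and 0 of 100. Alternatives were DESeq2's size factors (1.42.0), no low-count filter, DESeq2's Wald test, only the compared libraries, each animal left out, and the animal as a block. After the data were seen, removal of the GC and length trend and further left-out libraries were added. GC and length are those of the longest GENCODE transcript of each gene (GRCm38.p6), with values for 94.1% of genes. The block rests on both tissues coming from the same animals. Deviations of heart and muscle of 1 animal correlated by -0.06 to 0.44, over 0.1 in 6 of 10 animals.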

Additional observations from a re-analysis of the deposited data

Results flagged for a closer look

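Of 192 groups of 5 values, 12 held 1 library far from the rest by Dixon's test (6.25%; chance gives about 1 in 20). In exenatide animal E7, Myh4 (207 CPM), Atp2a1 (98.1), Tnnt3 (37.4) and Actn3 (29.5) were far above the other 4. Nppa was highest in exenatide animal E5 (71.6 CPM) and in control E29 (80.1). E29 also had the lowest Adra1b of the controls (23.7 CPM). Control E32 had the highest Mybpc3 (5554 CPM) and the lowest Fstl1 (203). Control E13 had the highest Myh4 (3.16 CPM) and Atp2a1 (1.87) and the lowest Lgals4 (29.3).

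The exenatide effect differed by a test of the difference for 20 pairs of gene and comparison. With the knockdown it was lower by a log2 difference of -1.10 for Sfxn2 and -0.99 for Ccdc84, neither of them called without E35 or without E9. In heart minus skeletal muscle it was positive for Atp2a1 (4.57), Myom3 (3.76), Adamts7 (2.34), Lama5 (2.03), Dixdc1 (1.82), Lgals4 (1.61), Nr1d1 (1.59), Carns1 (1.51), Adcy6 (1.49), Rasd2 (1.44), Rhof (1.15), Sfxn2 (0.98), Whamm (0.63), Ndor1 (0.60) and Pfas (0.59). It was negative for Mga (-1.57), Ackr3 (-0.89) and Septin7 (-0.71). The heart value of Atp2a1 rests on animal E7.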

How the results depend on the processing

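The 390 calls of exenatide against control in heart became 359 with DESeq2's size factors, 128 without a low-count filter, 865 with DESeq2's Wald test, 1508 when only the 10 libraries entered, 396 without the GC and length trend, 135 without both E7 and E29, and 1301 without the 6 libraries of other conditions with the steepest GC slopes. Leaving out each animal gave 66 to 390. Within the knockdown the count of 4 became 118 with DESeq2's Wald test, 12 with only the compared libraries, 8 without the GC and length trend, and 0 to 10 with an animal left out. The difference with the knockdown (5 genes) became 2 without a filter, 284 with DESeq2's Wald test, 72 with only the compared libraries, 22 without the trend, and 1 to 157 with an animal left out. The heart minus muscle difference (2668 genes) was 1300 to 4198 with an animal left out, 1204 without E7 and E29 and 1343 without the trend. With the animal as a replicate block it was 2188, of which 2012 were shared. With an animal left out, Atp2a1 ran from -0.34 to 4.44, Myh4 from -3.82 to 9.24 and Tnnt3 from -1.01 to 3.90, each lowest and turned without E7, and they were -0.34, -4.03 and -1.01 without E7 and E29. Their rise rests on E7. The cause of the other changes was not tested. Depth limits genes near the floor such as Glp1r, and animals, 5 a group, limit the differences of under 1 on the log2 scale.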

Other observations

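Several lists with no call leaned to one side in the short-term hearts, where 12.7% of all tested genes were higher and 8.70% lower at an unadjusted p under 0.05. Of 24 proteasome subunits, 23 were lower with exenatide, 8 of them at that level (median log2 difference -0.19). Of 23 genes of the unfolded protein and integrated stress response, 8 were lower and 2 higher at that level (median -0.30), and 1 was called as a fall after removal of the GC and length trend. Of 16 IGF and growth signalling genes, 7 were higher and 1 lower (median 0.38), and 3 were called as rises after that removal. Of 16 complement genes, 8 were lower and 0 higher (median -0.62), and their median with the knockdown was 0.42, a contrast that was not tested as a list.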
